A study of Mus musculus with 16 samples.

Results

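WSB, one of the 8 founder strains of the Diversity Outbred mouse population, was compared with the 7 other founders by the accessible chromatin of its pancreatic islets. The members were the 2 samples labelled WSB_EiJ, out of 16 samples in all, and the 14 others came from 129S1_SvImJ, A_J, C57BL/6J, CAST_EiJ, NOD_ShiLtJ, NZO_HlLtJ and PWK_PhJ (129, AJ, B6, CAST, NOD, NZO and PWK below). Every strain gave 1 female and 1 male sample, each made from 50 islets, and neither a treatment nor an engineered allele was named for any group. The ages were not in the labels. The assay was ATAC-seq, whose transposase inserts sequencing adapters where DNA is accessible, and the deposited lists hold the peaks of each sample with their signal. The 2 sexes were the only replicates of a strain, so the p-values below measure the spread between the sexes of a strain, and they do not count each strain as 1 independent genome.

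Accessible regions mark promoters and enhancers, where transcription factors keep the DNA free of nucleosomes. In islets, most of which are insulin-secreting beta cells with glucagon, somatostatin and pancreatic polypeptide cells beside them, enhancers are bound by factors such as PDX1, NKX6-1, NEUROD1, FOXA, RFX and MAF proteins. AP-1, a dimer of FOS and JUN proteins, is an inducible factor that opens enhancers in many tissues after growth, stress or depolarization signals. WSB is a wild-derived strain, as are CAST and PWK, and variants that separate WSB from the reference strain B6 can lie in any of these elements.

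The sequences of the leading regions are printed first, since the comparisons below refer to them. Each is the plus strand of 200 bases of the B6 reference (GRCm38, called mm10 in the labels) around the summit of the signal, so it is not the sequence of WSB itself. A line is named by the gene of the nearest start site, and intron means inside some gene, not necessarily the named one. The Gm45591 and Gm18956 starts lie 21668 and 41353 bases from their regions. Capitals mark matches, on either strand, to the letters TGANTCA for AP-1, CCAAT for NFY, TGTTTAC for FOXA factors, AGATAA for the family of GATA factors, AGGTCA for nuclear receptors, CCAGNNGGC for CTCF and CCGGAAG for ETS factors. Over all tested regions, windows of this length held the AP-1 letters in 12.7%, NFY in 26.2%, FOXA in 6.30%, GATA in 8.32%, nuclear receptor in 12.5%, CTCF in 8.79% and ETS in 4.74%. The regions of the smallest adjusted p among those higher in WSB come first, at the promoter of Cwc22 and in the adjoining intergenic interval before 4930440I19Rik.
Cwc22 promoter (chr2:77946191-77946390): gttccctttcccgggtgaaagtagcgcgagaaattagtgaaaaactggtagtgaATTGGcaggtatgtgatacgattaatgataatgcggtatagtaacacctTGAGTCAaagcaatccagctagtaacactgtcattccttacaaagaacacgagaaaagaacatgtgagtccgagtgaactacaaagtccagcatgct
4930440I19Rik, first region (chr2:78005749-78005948): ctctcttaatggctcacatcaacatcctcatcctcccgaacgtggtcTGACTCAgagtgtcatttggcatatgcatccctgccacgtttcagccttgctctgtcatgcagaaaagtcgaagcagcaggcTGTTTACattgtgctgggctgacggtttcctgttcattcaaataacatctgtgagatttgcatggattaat
4930440I19Rik, second region (chr2:78022019-78022218): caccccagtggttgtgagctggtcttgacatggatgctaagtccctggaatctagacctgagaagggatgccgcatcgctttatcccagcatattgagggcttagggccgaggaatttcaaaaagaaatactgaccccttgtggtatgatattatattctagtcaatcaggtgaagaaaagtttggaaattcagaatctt
The Cwc22 window and the first 4930440I19Rik window each held 1 AP-1 match, and the second held none of the letters searched. The next lines are from the regions of the smallest adjusted p among those lower in WSB.
Gm21119 intron (chr8:20624948-20625147): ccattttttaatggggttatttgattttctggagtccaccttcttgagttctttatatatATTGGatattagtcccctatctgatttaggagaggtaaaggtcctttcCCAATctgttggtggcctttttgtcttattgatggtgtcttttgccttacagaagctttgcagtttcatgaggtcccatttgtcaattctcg
Zfp456 promoter (chr13:67375711-67375910): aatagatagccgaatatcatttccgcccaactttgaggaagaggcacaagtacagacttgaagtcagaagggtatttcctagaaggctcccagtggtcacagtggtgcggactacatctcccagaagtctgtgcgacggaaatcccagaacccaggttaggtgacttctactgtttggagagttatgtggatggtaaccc
Gm43743 promoter (chr3:94334539-94334738): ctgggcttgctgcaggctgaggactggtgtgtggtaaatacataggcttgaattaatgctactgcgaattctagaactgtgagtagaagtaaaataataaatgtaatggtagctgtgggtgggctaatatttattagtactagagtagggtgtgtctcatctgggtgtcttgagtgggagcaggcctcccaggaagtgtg
The last 4 are regions with a peak in both WSB samples and in no other, and then regions with a peak in all 14 others and in neither WSB sample.
Gm45591 intron, WSB only (chr7:99299099-99299298): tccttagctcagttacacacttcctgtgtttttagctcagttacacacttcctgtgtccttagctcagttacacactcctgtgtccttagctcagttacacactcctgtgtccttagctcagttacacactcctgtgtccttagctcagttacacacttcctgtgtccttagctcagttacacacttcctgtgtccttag
Gm18956 intron, WSB only (chr1:3294281-3294480): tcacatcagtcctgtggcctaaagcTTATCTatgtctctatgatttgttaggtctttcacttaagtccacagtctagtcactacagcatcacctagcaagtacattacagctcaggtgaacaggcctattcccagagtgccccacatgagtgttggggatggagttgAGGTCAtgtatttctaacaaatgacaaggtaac
Capg intergenic, absent in WSB (chr6:72538782-72538981): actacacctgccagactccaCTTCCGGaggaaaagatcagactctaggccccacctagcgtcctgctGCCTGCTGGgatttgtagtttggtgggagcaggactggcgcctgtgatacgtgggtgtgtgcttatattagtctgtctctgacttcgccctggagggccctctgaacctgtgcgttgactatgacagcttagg
Gm23984 intergenic, absent in WSB (chr1:45780920-45781119): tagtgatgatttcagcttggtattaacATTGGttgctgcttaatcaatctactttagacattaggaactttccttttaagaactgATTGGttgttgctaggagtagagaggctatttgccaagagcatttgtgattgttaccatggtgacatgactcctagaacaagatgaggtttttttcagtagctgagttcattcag
All of the Gm21119 and Gm45591 windows (100%) is marked as repeat sequence in the reference, and the Gm45591 window is a tandem repeat. None of the Cwc22, Gm18956, Capg and Gm23984 windows is so marked (0%). A match of letters is a description of the reference and not of binding.

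The WSB female had the most autosomal peaks of the 16 samples, 167051, and the WSB male had 133259, against 77887 to 145886 in the others. The mean of WSB (150155) lay above all 7 other strain means (111440 ± 21162, SD, n = 7) by 38715, for which an exact permutation test over the 8 strains gives a two-sided p of 0.13, the smallest it can give. The lists do not give the reads of each sample, so list length and depth were not separated. The PWK male stood apart, with a median summit signal of 10 against 22 to 40 in the other lists, and the main counts are also given without it. Whole chromosomes also shifted between samples. The median centred signal of chromosome 19 was 0.34 and 0.32 (log2) above the mean of the 16 samples in the WSB female and male, and the others ranged from -0.75 (B6 male) to 0.37 (NZO male). Chromosome 11 ranged from -0.46 to 0.55 and chromosome 18 from -0.35 to 0.30 in the other strains, with WSB between -0.07 and 0.01 on both. On the 16 other autosomes WSB lay between -0.16 and 0.01 and the others between -0.19 and 0.16. Counts that a chromosome could set are therefore also given after centring within each chromosome, an alternative chosen after the shifts were seen.

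**Figure D1:**
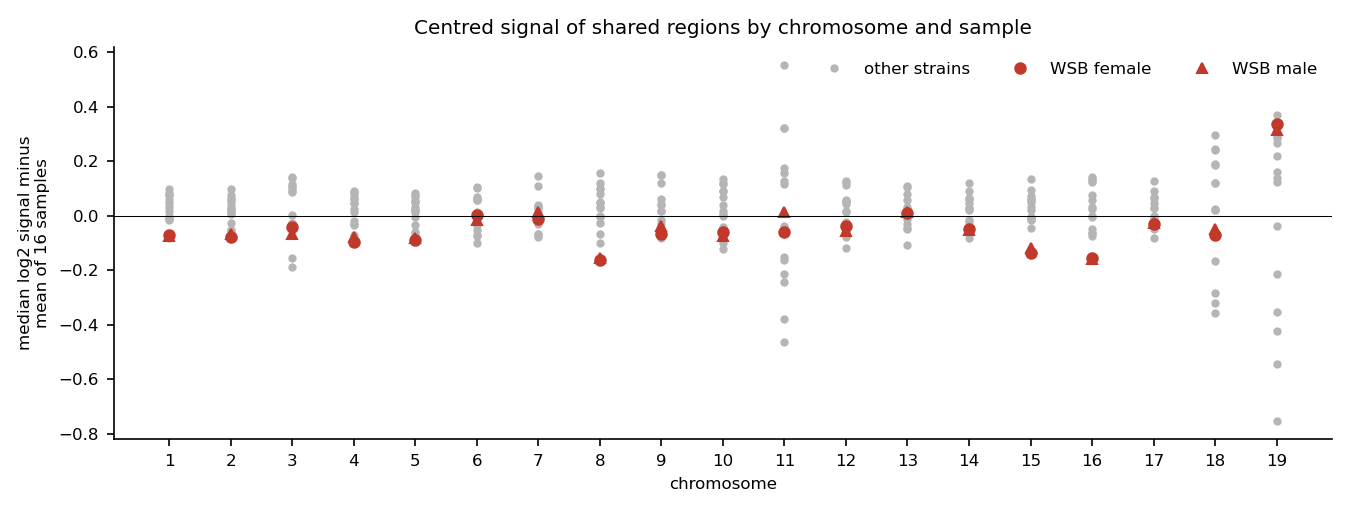
Median centred log2 summit signal of the shared regions on each autosome, minus the mean of the 16 samples (vertical axis, log2), by chromosome (horizontal axis). Grey dots are the 14 samples of other strains, the red circle is the WSB female and the red triangle the WSB male. WSB lies at 0.34 and 0.32 on chromosome 19, where the others spread from -0.75 to 0.37.

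The label of the tissue was compared with its markers by the promoter signal, scaled as the summit signal over the median of the sample's shared regions and set to 0 where no peak was listed. Ins1, which encodes insulin, had a scaled signal of 5.08 in the WSB female and 4.73 in the WSB male (others 1.45 to 6.49). Gcg, the glucagon gene, had 3.75 and 3.19 (others 1.85 to 5.90), and Pdx1, the factor that defines beta cells, had 1.63 and 1.48 (others 0.919 to 2.36). Sst and Ppy, the somatostatin and pancreatic polypeptide genes, had no promoter peak in WSB, and in the others they had one in 1 and 2 samples. Of the markers of other cell types, the acinar Cpa1, Cpb1, Ctrb1, Pnlip and Amy2b, the ductal Krt19, the endothelial Pecam1 and the leukocyte Ptprc were at 0 in both WSB samples. Counting all markers, 7 of 18 acinar ones had a promoter peak in each WSB sample, and in the female and the male 9 and 8 of 11 duct, 5 and 6 of 12 endothelial, 10 and 7 of 12 mesenchymal and 2 and 2 of 16 leukocyte markers had one. The summed promoter signal of the 18 acinar markers was 4.14 and 3.72 in WSB (others 2.47 to 5.73), that of the 11 duct markers 6.49 and 7.36 (others 4.82 to 11.4), and that of the 16 leukocyte markers 0.642 and 0.739 (others 0 to 5.07). The 12 endothelial markers summed to 7.06 and 7.47 (others 5 to 9.10) and the 12 mesenchymal ones to 5.40 and 5.36 (others 4.90 to 7.22), so WSB lay within the range of the other samples in all 5 lists.

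Merging the 16 lists gave 347712 regions, of which 40940 (11.8%) had a peak in all 16 samples and were tested. WSB differed from the mean of the 7 other strains in 2377 of them (5.81%), 1092 higher (2.67%) and 1285 lower (3.14%), by limma at a Benjamini-Hochberg adjusted p under 0.05. The median difference was 1.05 (log2) over the higher regions, of which 620 changed by more than 1 and 23 by more than 2. Among the lower regions the median was -1.09, with 766 beyond 1 and 85 beyond 2, and over all tested regions it was -0.07. Both WSB samples lay above all 14 others in 572 of the higher regions and below all 14 in 756 of the lower ones. Over all tested regions, called or not, 1005 (2.45%) had both WSB samples above all others and 1480 (3.62%) had both below. Taken separately, the sexes gave the same sign in all 2377 called regions, which the call itself favours, and in 77.7% of all tested regions. The female and male differences correlated at r = 0.789 across the tested regions, which share the 2 WSB libraries and are not independent.

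**Figure D2:**
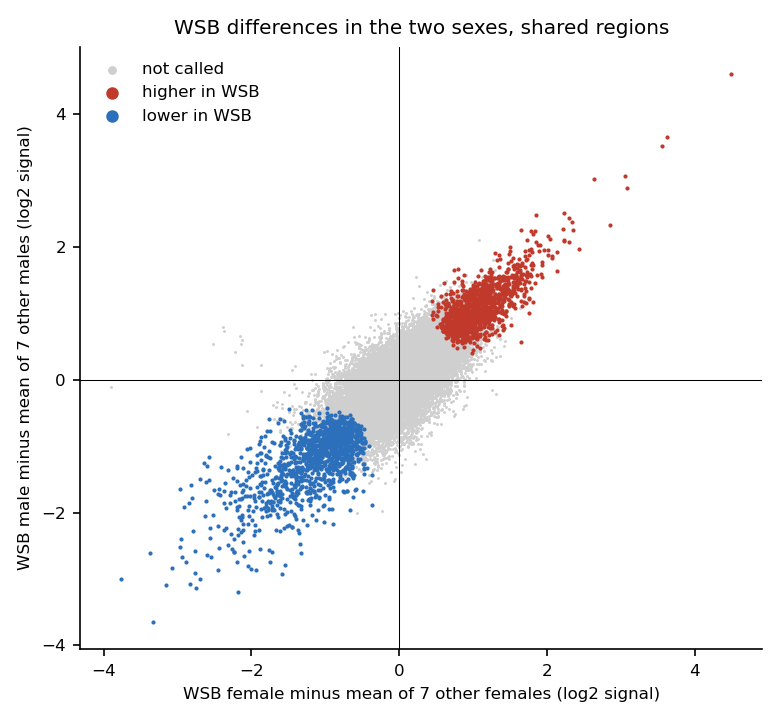
Difference of the WSB male from the mean of the 7 other males (vertical axis, log2 summit signal) against that of the WSB female from the 7 other females (horizontal axis, log2), 1 point per tested region. Red points are the 1092 regions called higher in WSB, blue the 1285 called lower and grey the rest, and each called region lies on the same side of 0 in both sexes.

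These counts depended on the spread that was used. With the 8 strain means as the values, limma called 2 regions higher and 1 lower, and 664 and 878 had an unadjusted p under 0.05, against 4143 and 4648 with the samples as the values. Leaving out the WSB female left 37 higher and 184 lower regions, and leaving out the WSB male left 33 and 178, whereas without the PWK male 986 and 1275 were called. With no centring the split turned to 1390 higher and 204 lower. Centring within each chromosome called 976 higher and 1223 lower, and 891 and 1162 of these were among the regions above. On chromosome 19 the change was from 122 higher regions of 975 tested (12.5%) and 9 lower to 23 higher and 22 lower, so direction on that chromosome is uncertain for most regions. The lists hold signal and neither cell numbers nor DNA copy number, so fewer open cells and less signal per cell, or more copies of a segment and more signal per copy, cannot be told apart.

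The locus of Cwc22, a splicing factor that also brings the exon junction complex to the spliceosome, held the strongest difference. At its promoter (chromosome 2, 77943565 to 77951852, GRCm38) the scaled signal was 37.5 in the WSB female and 40.4 in the WSB male, and in the 14 others it had a lowest value of 1.85 (NZO female), a median of 3.19 and a highest of 7.04 (CAST male). Both WSB samples were far above every other sample, with the CAST samples next. The difference was 3.53 ± 0.19 (log2, SE, limma adjusted p = 1.61e-06). The neighbouring region over the gene itself (77887137 to 77942986, 55850 bases wide) had 39.1 and 38.01 in WSB and 0.527 to 3.35 in the others, a difference of 4.54 ± 0.42 (limma adjusted p = 6.37e-05). The WSB samples again did not overlap the rest, but the deposited mean signal of the same region gave 0.61 with a limma adjusted p of 0.248, so that call rests on the summit.

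A pair of intergenic regions between Cwc22 and the noncoding gene 4930440I19Rik moved with it. In the first (78004122 to 78012719) the WSB samples had 10.4 and 9.61, and the others 0.527 to 1.11 with a median of 0.835. The second (78019821 to 78027226) had 4.5 and 5.53 in WSB and 0.291 to 1.24 in the others. Neither region overlapped between WSB and the rest, and the differences were 3.64 ± 0.22 and 2.83 ± 0.22 (limma adjusted p = 4.07e-06 and 1.49e-05). The tested regions next to these on either side were not called. The nearest on the far side, at the promoter of 4930440I19Rik (78048113 to 78050079), had 4.42 and 4.66 in WSB and 2.34 to 7.61 in the others, a difference of -0.01 ± 0.27 (limma adjusted p = 0.992). On the near side an intron of Zfp385b (77709062 to 77709876) had 0.736 and 0.852 against 0.727 to 1.55, with -0.53 ± 0.20 (adjusted p = 0.144, limma). Farther out on that side, an intron nearest Gm13944 and Zfp385b (77456561 to 77456980) was lower in WSB, with 0.575 and 0.511 against 0.691 to 1.72 (-0.89 ± 0.19, limma adjusted p = 0.0144). The first intergenic region and the wide region over Cwc22 were also the 2 higher regions called on the strain means, with limma adjusted p-values of 0.00683 and 0.0355. The interval of 4 higher regions thus spans 77887137 to 78027226 in the reference.

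The other 8 higher regions named by rank lay at other loci. An intron of Otulinl, an inactive relative of the deubiquitinase OTULIN (chromosome 15, 27670146 to 27671204), had 3.11 and 3.01 in WSB, and the others had 0.194 to 0.735 with a median of 0.353. All 14 were below both WSB samples, by 2.98 ± 0.25 (log2, limma adjusted p = 2.41e-05). An exonic region nearest the noncoding gene 2810414N06Rik had 0.991 and 1.34 against 0.182 to 0.418 (2.03 ± 0.18, limma adjusted p = 4.47e-05). Its nearest protein-coding start is that of Edem3, an enzyme of glycoprotein degradation in the endoplasmic reticulum. An intronic region nearest Gm48601 and the receptor phosphatase gene Ptprg had 3.68 and 3.39 against 0.199 to 1.93 (2.59), and one nearest Gm47590 and Anks1b, which encodes a synaptic scaffold protein, had 2.08 and 2.32 against 0.218 to 0.768 (2.36). Both WSB samples exceeded all others in each. Intergenic regions nearest Gm26089 and the cadherin gene Fat1 (1.86) and nearest Gm8927 and Ptprz1 (2.35) had the same order of samples. On chromosome 19, the promoter region of Ccdc86, a nucleolar protein gene, differed by 2.08 and an exonic region nearest Mir8092 and Zfp518a by 1.68. After centring within the chromosome these 2 differences were 1.69 and 1.29, and all 12 higher and all 12 lower regions named here stayed past the threshold. They also did so when any single sample was left out.

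**Figure D3:**
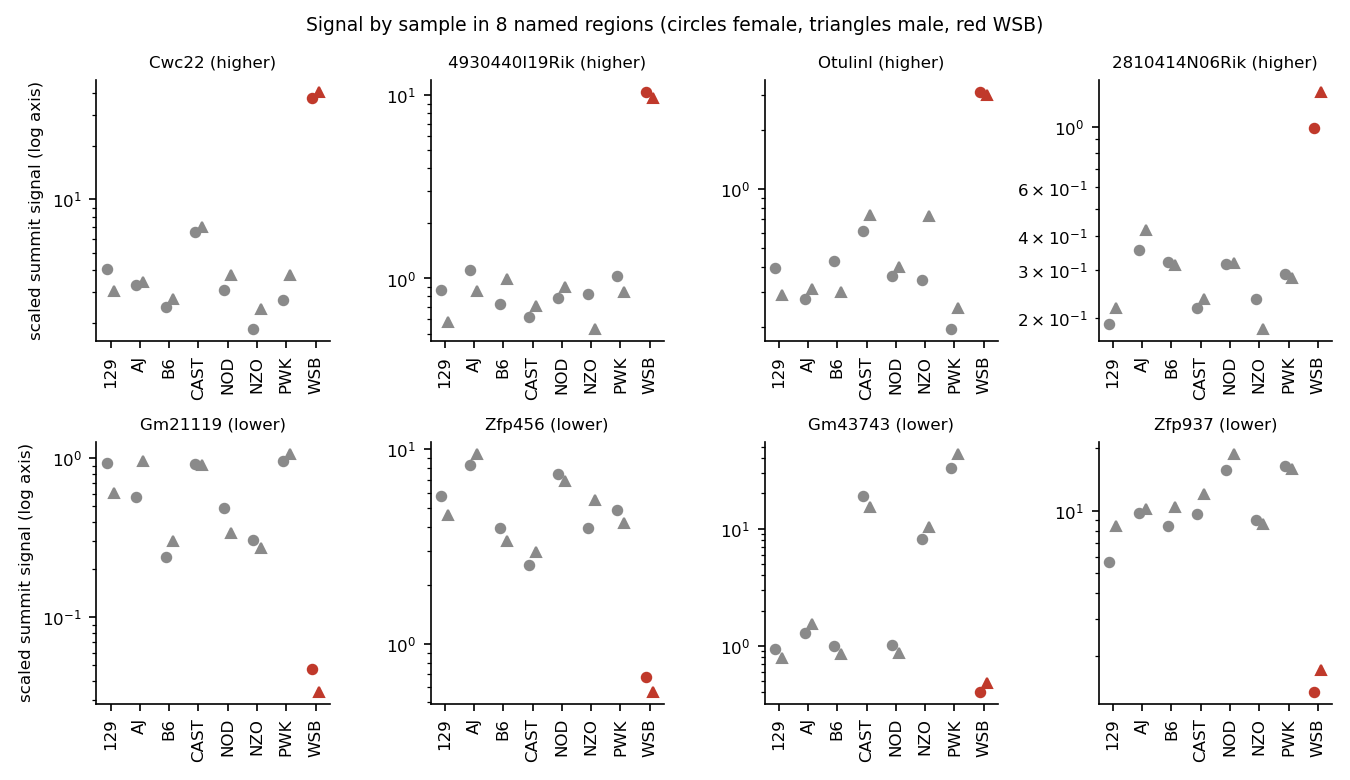
Scaled summit signal (vertical axis, log scale, in multiples of the sample's median shared region) by strain for the first 4 higher and the first 4 lower genes by adjusted p. Circles are females, triangles males, and WSB is red. In each upper panel both WSB points lie above the 14 others, and in each lower panel both lie below.

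Of the 12 lower regions named by rank, 10 lay at promoters, and 6 had a near-identical copy elsewhere in the reference. The first was an intronic region of Gm21119 (chromosome 8, 20624353 to 20625852), whose window had 4 such copies. It had scaled signals of 0.0472 and 0.0341 in WSB and 0.238 to 1.06 in the others, with a difference of -3.49 ± 0.23 (limma adjusted p = 4.29e-06). Zfp456 and Zfp937 encode zinc finger proteins of the KRAB type. The Zfp456 promoter (chromosome 13, 67375151 to 67376516) had no copy, and its scaled signal was 0.679 and 0.568 in WSB against 2.56 (CAST female) to 9.45 (AJ male) with a median of 4.73. Both WSB samples were below all 14 others, and the difference was -2.96 ± 0.19 (limma adjusted p = 4.29e-06). The Zfp937 promoter (chromosome 2, 150217420 to 150220472), with 1 copy, had 1.35 and 1.72 against 5.69 to 18.7 (-2.81).

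Not all of these differences set WSB equally far from each strain. At the promoter of Gm43743 (chromosome 3, 94334562 to 94334692), near the thioesterase gene Them5, WSB had 0.406 and 0.477. The 129, AJ, B6 and NOD samples lay just above it, from 0.783, whereas NZO, CAST and PWK were far higher, up to 43.3 in the PWK male. The difference was -2.95 ± 0.20 (limma adjusted p = 4.29e-06). Gm4076 had the same low and high groups of strains, with 20.8 and 24.5 in WSB and 33.0 (NOD female) to 1378 (PWK male) in the others (-2.29). The Gm4076 window had 479 bases that match the mitochondrial genome. Shorter or more diverged mitochondrial matches, which the mapping can miss, were not searched for at Gm43743 or the other regions. The PWK male had the highest signal in 6 of the 12 regions, all of which stayed past the threshold without it. At Gm34643, a noncoding gene whose nearest protein-coding start is that of the GABA-B receptor subunit gene Kctd12, the strains were more alike. WSB had 0.217 and 0.239 there and the others had 1.40 to 3.24, and it was the 1 lower region called on the strain means (-3.12 ± 0.21, limma adjusted p = 5.50e-06, and 0.0163 on the means). Nat1, which encodes an arylamine N-acetyltransferase, had 0.132 and 0.102 at its promoter (chromosome 8, 67480631 to 67481304) against 0.457 to 2.45 (-2.85 ± 0.22, limma adjusted p = 1.24e-05). E030030I06Rik, Gm2237, 9430037G07Rik, Gm28836 near the glutathione transferase gene Gsta3, and Gm2832 completed the set, with differences of -2.22 to -3.38.

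Regions with near-identical copies were frequent among those lower in WSB. A copy, here a match of at least 95% identity over at least 80% of a 500-base window, was found for 705 tested regions (1.72%). Among the lower regions 201 had one (15.6%), in 179 of them within 5 Mb, and among the higher regions 17 (1.56%). Of all tested regions with a copy, 28.5% were lower in WSB and 2.41% higher, and their median difference was -0.49 against -0.06 for those without. In the other strains, each set against its own 7, the median over regions with a copy was between -0.25 (B6) and 0.33 (PWK). A read that matches several copies equally well cannot be assigned to one of them, and the part of such reads in the signal was not tested. With these regions left out, 1007 higher and 1063 lower regions were called among 40235.

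Lower and higher regions differed in their largest chains. When called regions within 500 kb of each other were chained, 507 of 1285 lower and 417 of 1092 higher regions stood alone. The 5 largest chains of lower regions held 154 of 1285 (12.0%) and those of higher regions 55 of 1092 (5.04%). Of these 154, 94 were in the largest chain. The largest lay on chromosome 8 (19696147 to 20833446), from 4930467E23Rik to the defensin gene Defb33, where 94 of 103 tested regions were lower, 92 of them with a copy, and their median was -1.84. Next was a block of zinc finger genes on chromosome 2 (175108560 to 177927041), with 17 of 26 lower, all with a copy. On chromosome 14 the intervals 3947802 to 5072017 and 6035501 to 7246060, made of predicted genes, had 13 of 13 and 12 of 15 lower, of which 13 and 11 had a copy. Other chains had few or no copies. On chromosome 15 (71375884 to 73513426, with Col22a1, the potassium channel gene Kcnk9 and Trappc9) 16 of 50 tested regions were lower, 1 of them with a copy, and the median was -0.51. On chromosome 12 (7978084 to 9252244, with Apob, which encodes the main protein of low-density lipoprotein, and the GTPase gene Rhob) 14 of 42 were lower, none with a copy, and the median was -0.56. Off chromosome 19, the largest chain of higher regions was also on chromosome 12 (116181233 to 117251034), where 9 of 51 were higher around Ptprn2, which encodes the granule membrane protein phogrin. The chains were built from the calls, so their counts are descriptions.

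Presence and absence of peaks gave the other view. Regions with a peak in both WSB samples and in no other sample numbered 3524 (1.01% of the merged regions), and regions with a peak in all 14 others and in neither WSB sample numbered 104 (0.0299%). Of the 111905 regions with a peak in both WSB samples, 3.15% had none elsewhere and 36.6% had one in all 14 others. The same counts in other strains were 6249 present and 491 absent in CAST, 3385 and 787 in PWK, 1121 and 142 in NZO, and 182 to 393 present and 64 to 630 absent in the rest, with no test of these differences. Just outside the rule lay 26229 regions with a peak in 1 WSB sample alone, 3709 in both WSB samples and 1 other, 90 in 1 WSB sample and all others, and 54 in neither WSB sample and 13 others. The WSB-only regions were mostly weak and narrow, with a median scaled signal of 0.145, a median width of 200 bases and 52 of them above 0.5. The absent ones had a median of 0.660 in the other samples and a width of 800 bases. When each list was shortened to its 77887 strongest peaks, 788 and 160 regions remained, and without the PWK male the counts were 3842 and 111.

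**Figure D4:**
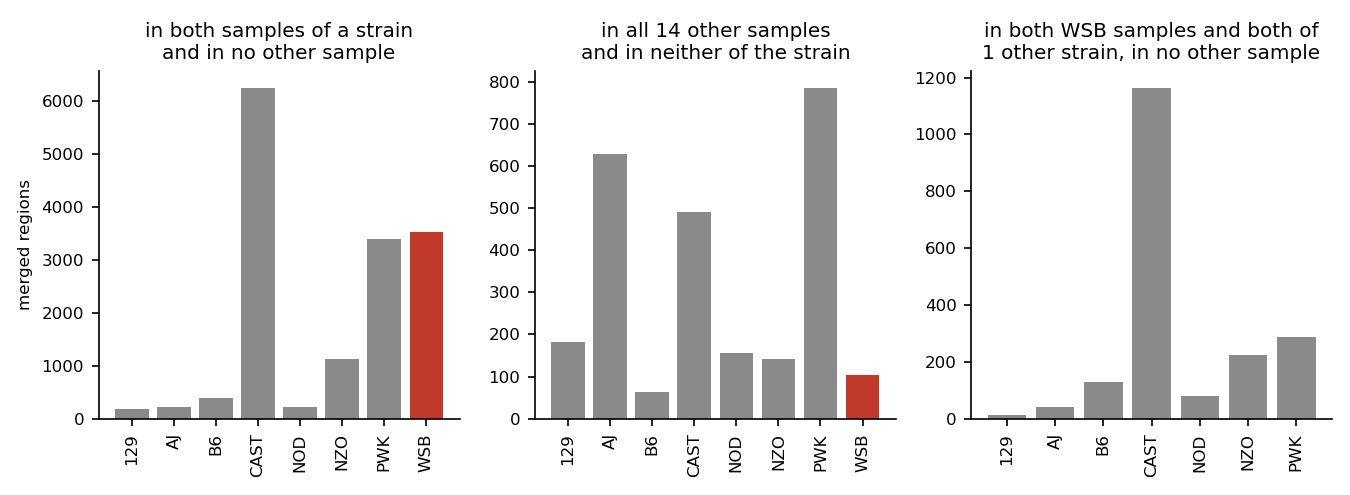
Merged regions (vertical axes, counts) by strain. The left panel has a peak in both samples of the strain and in no other, the middle panel a peak in all 14 other samples and in neither of the strain, and the right panel a peak in both WSB samples and both samples of 1 other strain alone. WSB, in red, has 3524 and 104, and it shares most with CAST (1164).

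The strongest WSB-only region lay in an intron nearest Gm45591, with Map6, a microtubule-stabilizing protein gene, as the nearest protein-coding start (chromosome 7, 99298280 to 99299532). Its scaled signal was 1.27 in the female and 2.11 in the male, its window had 1 copy elsewhere, and no other sample had a peak there. An intronic region near Gm18956 and Xkr4 (chromosome 1, 3294110 to 3294776) had 1.51 and 1.44 and no copy. The next were intergenic regions nearest Gm48999 (1.53 and 1.18), the mesoderm factor gene T (1.27 and 1.34), Gm36980 (1.08 and 1.41) and Gm3294 (1.07 and 1.05). None of the 6 was at a promoter, and 1 of them had a copy. Chains of WSB-only regions were found over the interval from Serbp1 to Rpia on chromosome 6, which holds the immunoglobulin kappa locus (54 regions, 17 with a copy), and at the Zscan4 genes on chromosome 7 (17, 10 with a copy).

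Among the regions absent in WSB, the strongest lay 4886 bases from a start site of Capg, which encodes an actin-capping protein (chromosome 6, 72538158 to 72539505). It had scaled signals of 4.47 (NZO female) to 7.20 (AJ female) in the 14 others with a median of 5.68. Neither WSB sample had a peak, so no fold is given. The second (chromosome 1, 45780339 to 45781999), nearest Gm23984 and the ribosome biogenesis gene Wdr75, had 0.585 (CAST female) to 6.78 in the others. The promoter of Gm44000 near the natural killer cell receptor gene Klrb1f had 1.14 to 4.26, and an intronic region of Ankrd6, a regulator of Wnt signalling, had 1.42 to 3.42. Regions nearest Gm7266 (1.74 to 3.47) and at Gm12100, near the proteasome activator gene Psme4 (1.22 to 3.34), completed the 6, none of which had a copy. Over all 104 absent regions 22 had a copy (21.2%), and 14 lay in the defensin interval on chromosome 8. Of the 3524 WSB-only regions 236 had a copy (6.70%).

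Regions higher in WSB were less often at promoters than the tested regions in general. Promoters, within 3 kb of a transcription start, made up 36.2% of tested regions, 17.0% of the higher and 28.6% of the lower ones. Introns made up 30.3%, 45.8% and 29.3%, and intergenic regions 27.0%, 25.6% and 35.3%. The WSB-only regions were 13.1% promoter and 45.2% intron, while those of the other strains were 15.4% to 21.2% and 22.6% to 39.7%. These shares are descriptions without a test.

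The AP-1 letters were found in 477 of the 1092 windows higher in WSB (43.7%), against 12.7% of all tested windows and 74 of the 1285 lower ones (5.76%). Outside promoters the shares were 45.0%, 15.7% and 6.43%. The letters read the same on both strands, so each site counts once. Regions with no match had a median difference of -0.11 (log2) and 1.72% of them were higher. With 1 match these values were 0.33 and 8.72%, and with 2 or more they were 0.59 and 13.1%. After centring within each chromosome, 44.7% of higher and 5.40% of lower windows held the letters. Over 29 settings of the fit with at least 100 regions called each way, the share was 37.4% to 52.3% among higher and 5.12% to 6.35% among lower regions. It was 40.2% and 5.49% without the PWK male. With fewer calls, it was 29.7% of the 37 regions higher without the WSB female and 24.2% of the 33 higher without the WSB male.

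Other strains had other shares in the same comparison. The AP-1 letters were in 3.61% (129) to 27.3% (NZO) of the regions higher in another strain and in 8.43% (NZO) to 45.3% (129) of those lower. WSB and 129 thus stood at opposite ends, in a comparison in which each is part of the other's reference. In single samples, regions outside promoters with the letters exceeded those without by 0.36 in the WSB female and 0.42 in the WSB male, as medians of the log2 signal relative to the mean of the 16 samples. The PWK female reached 0.36 too, and the others ran from 0.26 (B6 male) to -0.38 (both 129 samples). WSB and the other samples therefore overlapped in this measure. The sexes of some strains differed as much as strains did, with 0.14 in the AJ female and -0.35 in the AJ male, 0.36 and -0.09 in PWK, and -0.16 and 0.26 in B6. Among the strain-only regions the letters were in 29.1% for WSB and in 3.85% to 26.5% (NZO) for the others.

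**Figure D5:**
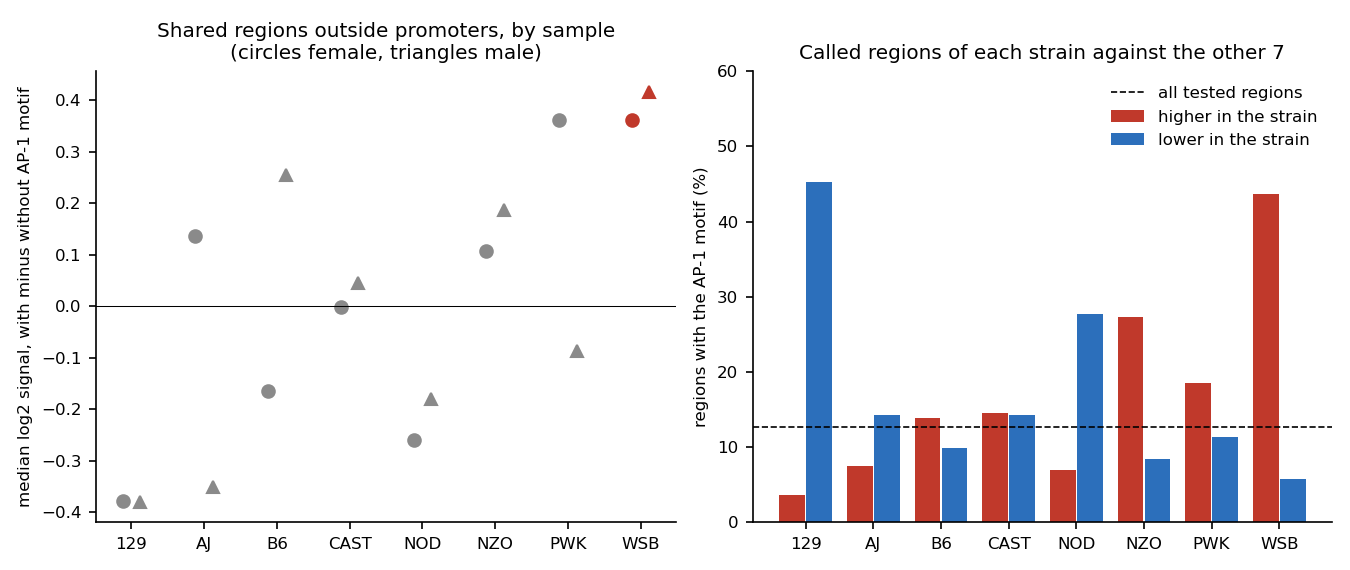
Left, median log2 signal relative to the mean of the 16 samples in the 4110 shared non-promoter regions with an AP-1 match minus that in the 21993 without (vertical axis), by strain, with circles for females, triangles for males and WSB in red. Right, percentage of the regions called higher (red) or lower (blue) in each strain against its other 7 that hold the AP-1 letters, with a dashed line at 12.7% for all tested regions. WSB has 43.7% and 5.76%.

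Of the 15 other motifs searched, those of CpG-rich promoters were less frequent in regions higher in WSB. The SP/KLF letters (GGGCGGG) were in 13.03% of tested, 1.83% of higher and 7.94% of lower windows, and the ETS letters in 4.74%, 0.824% and 3.74%. Outside promoters, where the SP/KLF share of tested windows was 2.75%, it was 1.10% in the higher ones. Letters of islet factors differed less. The FOXA share was 9.71% in higher and 6.30% in all tested windows, that of MAF (TGCTGAC) 7.97% and 5.22%, and that of homeobox factors (TAATTA) 8.06% and 5.79%. The NKX2 letters (CACTTGA) were in 2.56% and 2.73%, and the HNF1 letters in 1.65% and 1.79%. The NEUROD letters (CAGATGG) were in 9.52% and 7.86%, and outside promoters in 9.82% and 9.80%. The end of the MAF letters can start an AP-1 match, and the HNF1 letters (GTTAATNAT) can hold the homeobox ones. None of the genes of AP-1 itself was called higher. Of 23 tested regions at 20 immediate-early and AP-1 genes, 1 was called, at the promoter of Jun (chromosome 4, 95044836 to 95055799). It had scaled signals of 6.40 and 6.43 in WSB and 7.08 to 18.8 in the others, below all of them, with a difference of -0.81 ± 0.20 (limma adjusted p = 0.0298).

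Genes of 12 islet and cell pathways and of 5 sets of markers were then read one list at a time, with every tested region within 3 kb of a start or inside the gene. In all, 27 regions were higher and 16 lower, and 30 of the 43 did not overlap between WSB and the others. Over all called regions, inside the lists or not, 572 of 1092 higher and 756 of 1285 lower ones did not overlap either. Over all tested regions, both WSB samples were above all others in 2.45% and below in 3.62%. Of the 43, 15 lay on chromosome 19, and 3 of those stayed past the threshold after centring within the chromosome, against 26 of all 43. The share called is to be read against 5.81% of all tested regions.

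Islet hormones and granule proteins had 1 higher region of 21 (4.76%, median difference 0.12). It was the promoter of Iapp, the amyloid hormone secreted with insulin, with 1.35 and 1.70 in WSB and 0.366 to 1.67 in the others, which overlap, and a difference of 0.79 ± 0.21 (limma adjusted p = 0.0441, and 0.0545 within the chromosome). Beta cell and endocrine transcription factors had 6 higher and 0 lower of 51 (11.8%, median 0.12), and 3 and 0 after centring within each chromosome. In an intron of St18, a zinc finger factor of endocrine cells (chromosome 1, 6637864 to 6640223), WSB had 3.77 and 3.74 and the others 0.531 to 1.77 with a median of 1.05. Both WSB samples were above the highest other sample, the B6 male, and the difference was 1.95 ± 0.26 (limma adjusted p = 0.000786). The other regions of this list that the rule named were the promoter of Hhex, the factor that maintains delta cells (1.02), and a pair of Glis3 introns (1.17 and 1.18). Glis3 is a factor needed for beta cell formation. All 3 lie on chromosome 19, and their limma adjusted p-values were 0.101, 0.0696 and 0.140 after centring within it.

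Genes of glucose sensing and insulin secretion had 5 higher and 2 lower regions of 117 (5.98%, median 0.13). After centring within each chromosome there were 2 higher and 3 lower. Cacna1c, which encodes an L-type calcium channel, was lower at 1 of its promoters (chromosome 6, 118779888 to 118780923), with 0.528 and 0.545 in WSB against 0.667 to 2.07 (-1.20 ± 0.19, limma adjusted p = 0.00286). The promoter of Slc30a8, the zinc transporter of the insulin granule (chromosome 15, 52293800 to 52299772), had 0.566 and 0.614 against 0.805 to 2.16 (-0.95 ± 0.21, limma adjusted p = 0.0182). WSB was below all others in both. An intron of Cpe, the carboxypeptidase that trims proinsulin, had 2.97 and 3.398 in WSB and 0.509 to 1.90 in the others (1.69 ± 0.29, limma adjusted p = 0.00379). An intron of Rapgef4, the cyclic AMP sensor EPAC2, was higher by 1.12, with 2.17 and 2.39 in WSB within the others' range of 0.354 to 2.87.

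Genes at type 2 diabetes loci had 9 higher and 4 lower regions of 134 (9.70%), 2 of the higher ones being the Glis3 introns above, and centring within each chromosome left 1 and 4. The largest difference was in an intron of Grb14, an adaptor that restrains the insulin receptor (chromosome 2, 65003416 to 65003893), with 0.255 and 0.159 in WSB and 0.600 to 1.75 in the others (-2.40 ± 0.28, limma adjusted p = 0.000357). WSB was well below all others. An intron of Cdkal1, a tRNA-modifying enzyme gene, had 0.170 and 0.205 against 0.265 to 1.02 (-1.42, limma adjusted p = 0.00477). Sgms1, which encodes a sphingomyelin synthase on chromosome 19, had 6 higher regions and 1 lower, of which the rule named a pair, higher by 1.09 and 1.06. The first kept its call within the chromosome (0.70, limma adjusted p = 0.0406) and the second did not (0.66, limma adjusted p = 0.0508).

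Insulin and IGF signalling genes had 2 higher and 2 lower regions of 82 (4.88%). The promoter of Akt2, the insulin-responsive kinase, was higher, with 3.20 and 3.31 in WSB and 1.10 to 2.92 in the others (0.91 ± 0.18, limma adjusted p = 0.00917). Pdpk1, the kinase that activates AKT, was lower at a promoter region, with 0.792 and 0.648 against 1 to 3.29 (-1.21 ± 0.24, limma adjusted p = 0.0115). Both were outside the range of the other samples. Introns of Igf1r moved in both directions, 1 by -1.22 and 1 by 0.96. Genes of the unfolded protein response had 2 higher regions of 34 (5.88%), in introns of Atf6 (0.95) and Dnajc3 (0.73), and a median of -0.18.

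Of the antioxidant genes, 1 of 32 regions was called (3.13%), the promoter of Nfe2l2, the factor NRF2 that drives this programme. It had 1.78 and 2.03 in WSB and 2.88 to 4.81 in the others, and WSB was below all of them (-1.01 ± 0.20, limma adjusted p = 0.0115). Cell cycle genes had 3 lower of 40 (7.50%), at the promoter of Cdk4 and that of its neighbour March9 (-0.68 and -0.78) and within Rb1 (-0.85). Lipid genes had 2 higher and 1 lower of 39 (7.69%). An intron of Cpt1a, the carnitine transferase that admits fatty acids to mitochondria, was higher by 1.40 (1.00 within chromosome 19, limma adjusted p = 0.0221), its promoter by 0.73, and the promoter of Acsl1 was lower (-0.70). Both promoters lost their calls after centring within the chromosome (0.33 and -0.57, limma adjusted p = 0.294 and 0.0696). The circadian list had 1 higher region of 38 (2.63%), at Nr1d2 (0.85), where WSB had 2.59 and 2.65, within the others' range of 0.344 to 4.00, and where the deposited mean signal turned the difference to -0.24 (limma adjusted p = 0.671). The interferon list had 1 of 22 (4.55%), at the promoter of Ifit3 on chromosome 19 (1.05), whose window has a copy elsewhere. WSB had 1.46 and 1.5 there, within the others' range of 0.435 to 1.78, and the call was lost within the chromosome (0.66, limma adjusted p = 0.109).

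The marker lists of other cell types gave few calls. None of 6 acinar, 10 mesenchymal and 6 leukocyte regions passed the threshold. An intron of the ductal chloride channel gene Cftr was lower (1 of 12, -0.87 ± 0.23, limma adjusted p = 0.0456), and so was an exonic region of Vwf, the endothelial von Willebrand factor (1 of 10). Vwf had 0.821 and 0.989 in WSB and 1.68 to 3.04 in the others, which do not overlap, and a difference of -1.36 ± 0.18 (limma adjusted p = 0.000628).

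Finally, WSB was set beside each other strain. The Jaccard index of covered bases was 0.585 between the WSB female and male, and the mean over pairs with another strain ran from 0.501 (CAST), 0.487 (B6) and 0.481 (NOD) down to 0.376 (PWK). CAST also shared most regions present only in both strains (1164), followed by PWK (287), NZO (224), B6 (130), NOD (79), AJ (42) and 129 (14). These counts were not adjusted for list length, and the 1164 were 15.7% of the regions that CAST had alone or with WSB, against 7.14% (129) to 26.2% (NOD) for the others. In signal the order differed. The correlation of the centred signal over shared regions was 0.971 between the WSB sexes, and with other strains its mean was highest for B6 (0.870) and NOD (0.866) and lowest for 129 (0.819), with CAST at 0.820. Of the 572 higher regions that set both WSB samples above all others, the next strain was AJ in 112, CAST in 111, B6 in 99, PWK in 97, NZO in 88, NOD in 55 and 129 in 10. Of the 756 lower ones, the next was CAST in 211 and each other strain in 68 to 112. All of these values are descriptions over regions that share the same libraries.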

How the data were processed

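ATAC-seq peak lists of islets from 8 strains were analysed. By the study's methods and the submitters' processing notes, the authors trimmed reads (cutadapt 2.0), aligned them to mm10 (Bowtie2 2.3.4.1), removed mitochondrial reads and duplicates (Picard 2.9.2) and called peaks per sample with MOSAiCS (FDR 0.05). A shift of transposase cut sites is not given in the sources used here. The deposited lists hold the summit and mean signal of each peak as the authors' caller wrote them, not scaled to depth, and what the mean averages is not stated. The deposited −log10 p-value from the authors' caller ranked peaks in 1 alternative. The authors' strain lists, from pooled sexes, hold a −log10 IDR (irreproducible discovery rate), used in another at 0.05, and their 16 columns of single samples were not used.

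Overlapping peaks of the 16 lists were merged on chromosomes 1 to 19. For regions with a peak in every sample, log2(signal + 1) of the strongest summit was centred on the sample's median and fitted with limma 3.58.1 (R 4.3.3) with strain and sex as terms, contrasting WSB with the mean of the 7 others, and p-values were adjusted by Benjamini-Hochberg over all 40940 regions. In data simulated for this comparison with 40940 regions, 25 of 100 changes of 1 (log2) and 93 of 100 changes of 2 were called, with 6 of 40740 unchanged regions. The simulated strains shared 1 mean per region apart from these changes, with the spread between the sexes of a strain as noise. It therefore cannot show how often ordinary differences among strains give a call. Scaled signal is the summit signal over the sample's median shared region, 0 where no peak was listed. Genes are from GENCODE M21 (GRCm38), named by the nearest start, and a promoter is within 3 kb of one. Copies were found with minimap2 2.31-r1302 and 16 motifs were searched, in Python 3.11.15 with numpy 2.4.6 and pandas 2.3.3.

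The members and the lists were chosen with earlier results of these data known. Named were the 12 higher and 12 lower regions of the smallest adjusted p in which both WSB samples lay beyond all 14 others, the 6 strongest regions present only in WSB, the 6 strongest absent only there, and in each gene list every called region or the 4 of the smallest adjusted p. Alternatives changed the centring, pseudocount, signal, filters, width limit (5 kb), peak sets and samples.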

Additional observations from a re-analysis of the deposited data

Results flagged for a closer look

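The sex chromosomes were outside the comparisons, and on 1 of them each WSB sample had the longest list for its sex. The WSB male had 2150 peaks on chromosome Y, against 117 to 1514 in the 7 other males. The WSB female had 6684 peaks on chromosome X, against 3703 to 6404 in the 7 other females. The WSB male did not have the most peaks on chromosome X (4159, against 4622 in the PWK male), nor the WSB female on chromosome Y (37, against 159 in the PWK female). The WSB female also had the longest autosomal list, 167051 peaks, but the WSB male, with 133259, did not, since the PWK male had 145886. With 1 sample per strain and sex these differences have no replicate, and they were not tested.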

How the results depend on the processing

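With the 8 strain means as values, 2 regions were higher and 1 lower in WSB, and the same numbers, 2 and 1, were found after centring within each chromosome. Regions above the median by mean signal gave 498 and 666, and peaks above the median significance of each list 628 and 662, where fewer regions are tested. With no centring 204 regions were lower and 1390 higher. Leaving out 1 sample gave 33 to 1941 higher and 178 to 2132 lower regions. Single samples whose absence moved a count by over 1.5 times were the WSB female (37 and 184) and male (33 and 178), where the lone WSB sample is assumed to vary like the other strains, the NZO female (1941 and 1965) and male (1799 and 2132), and, for higher regions, the CAST female (609) and male (673) and the NOD female (621) and male (667). Without a whole strain the counts of higher regions were 720 (CAST), 726 (NOD) and 2022 (NZO), and 2183 lower regions were called without NZO. The cause was not tested. Regions present in WSB alone numbered 1919 by significance, 788 with equal numbers of peaks, 9143 in the strain lists and 5574 without CAST, and leaving out 1 sample gave 3584 to 23622, since without the WSB female (10673) or male (23622) a single WSB sample decides. Regions absent in WSB alone were 63, 160 and 64 in the same first 3 settings, 19 when peaks had to cover at least 0.5 of a region, and 104 to 175 without 1 sample, the most without the WSB female. The gene lists held 28 called regions after centring within each chromosome. Of the 55 named regions that were tested, 15 weakened under the deposited mean signal, and that of Nr1d2 changed sign, to -0.24 (limma adjusted p = 0.671). Of the 12 higher and 12 lower ones the wide Cwc22 region alone was lost with that signal, so the other weakened regions came from the gene lists. On the strain means 52 of the 55 weakened. Regions named from the gene lists did not all stay past the threshold when single samples were left out. The labels give no replicate numbers. Sex, which samples of different strains share, was a term of the model, and without it 1235 higher and 1349 lower regions were called. Each other alternative run for these counts stayed within 1.5 times the reported one. The lists give no reads per sample, so a weak peak missing from a list may reflect depth.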

Other observations

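Summed over the promoters of 18 genes of the unfolded protein response, the scaled signal was 69.1 in the WSB female and 74.9 in the WSB male, below all 14 other samples (79.6 to 109). The corresponding sum over 22 immediate-early and AP-1 genes was 61.2 and 63.3, and the others had 62.9 to 108, so the WSB male overlapped them. The median difference was -0.18 (log2) over the 13739 promoter regions with no AP-1 match and -0.18 over the regions of the unfolded protein response list. The WSB female was below all others in the sums of the cell cycle, antioxidant and lipid lists too, and the WSB male was not. Of the 34 tested regions of the unfolded protein response list, 2 were called, both higher in WSB and both in introns.

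Matches of at least 100 bases to the mitochondrial genome were found at 6 tested regions. All 6 regions found were lower in WSB, with a median difference of -1.23, and Gm4076 is one of them. Mitochondrial reads had been removed by the authors, and the part of reads from mitochondria in these regions was not tested.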
